A study of Mus musculus with 3 samples.

Results

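The epithelium of the thymic medulla was followed through 10 genes, *Aire*, *Fezf2*, *Trp63*, *Krt5*, *Krt14*, *Epcam*, *Cd80*, *Tnfrsf11a*, *Ccl21a* and *Ccl19*, out of 54838 genes listed in the count matrices. They were chosen by name as genes of this epithelium, and all 10 were found by symbol. They were measured by BMKMANU S1000 spatial transcriptomics, in which a tissue section lies on a chip of barcoded spots 4.8 µm apart, in 3 thymus sections from female C57BL/6 mice. The WT section came from a *Trp53*+/+ mouse of 17 weeks, and the KO sections from 2 *Trp53*-/- mice, KO1134 of 17 weeks and KO1308 of 21 weeks. These ages are those of the labels, and the study elsewhere lists the WT mouse as older than its label does. The knockout mice lacked p53 in every cell type, so no difference can be assigned to *Trp53* of the epithelium itself. All mice were perfused with PBS. Permeabilisation lasted 25 min for WT and 27 min for the KO sections, so genotype and this step cannot be told apart. With 1 WT section there was no test between genotypes, since 2 sections against 1 cannot go below an exact permutation p of 0.333. Each section is therefore described on its own, with 95% exact intervals that cover counting error only, and both KO sections were set against the same WT section.

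Spots were summed into square bins of 27 µm. Connected bins with at least 300 genes formed the tissue, with 15848 bins and 17443663 unique transcript counts (UMIs) in KO1308, 12020 bins and 31124531 UMIs in KO1134, and 27095 bins and 40572053 UMIs in WT. Levels are UMIs per 1000000 UMIs of the same bins (CPM). A bin can hold several cells of different types, so a level is that of a region and not of an epithelial cell. *Trp53* itself stood at 80 CPM in WT, 25.1 in KO1308 and 17 in KO1134. The counts are per gene and do not show which exons the remaining *Trp53* UMIs came from.

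Medullary thymic epithelial cells display proteins of other tissues to developing T cells, so that T cells that recognise self are deleted or become regulatory T cells. The transcriptional regulator AIRE and the zinc finger factor FEZF2 drive much of this display. The cells are built on keratins 5 and 14, carry the adhesion molecule EpCAM, depend on the p53 relative p63, and mature on signals through RANK, encoded by *Tnfrsf11a*, and CD40, which act through noncanonical NF-κB and RelB. A subset secretes CCL21, and CCL21 and CCL19 attract positively selected thymocytes through CCR7, while mature cells carry CD80 to costimulate T cells. Several of these genes are not private to the medulla. *Trp63* and *Epcam* are also used by cortical epithelium, *Cd80* by dendritic cells and B cells, and *Ccl21a* and *Ccl19* by stroma of lymphoid organs.

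In the GRCm38 genome, which the submitters' processing notes name, *Aire* occupies chr10:78030022-78043610, *Krt5* chr15:101707070-101712898 and *Ccl21a* chr4:42772860-42773993, near *Ccl19* at chr4:42754525-42756577, all on the minus strand. RefSeq promoters (GRCm38.p6) were found for 9 of the 10 members, and *Trp63* had none. Those of *Aire*, *Krt5* and *Ccl21a* are shown because these genes carry the regulator, keratin and chemokine results. Each sequence is the 250 bases before the transcription start, 5′ to 3′ on the gene's strand, from chr10:78043611-78043860, chr15:101712906-101713155 and chr4:42773992-42774241. Matches to the letters TATAAA, the κB consensus or the p53 family half-site on either strand are in capitals.
Aire: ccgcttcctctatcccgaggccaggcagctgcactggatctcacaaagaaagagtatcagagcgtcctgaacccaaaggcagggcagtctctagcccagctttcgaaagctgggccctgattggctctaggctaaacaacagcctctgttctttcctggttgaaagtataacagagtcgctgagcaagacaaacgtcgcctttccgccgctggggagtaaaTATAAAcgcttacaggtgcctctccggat
Krt5: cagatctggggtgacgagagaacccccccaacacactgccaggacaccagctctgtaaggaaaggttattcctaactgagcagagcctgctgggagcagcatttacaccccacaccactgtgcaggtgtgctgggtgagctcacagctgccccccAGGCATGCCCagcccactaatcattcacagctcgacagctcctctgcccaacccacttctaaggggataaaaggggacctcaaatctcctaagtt
Ccl21a: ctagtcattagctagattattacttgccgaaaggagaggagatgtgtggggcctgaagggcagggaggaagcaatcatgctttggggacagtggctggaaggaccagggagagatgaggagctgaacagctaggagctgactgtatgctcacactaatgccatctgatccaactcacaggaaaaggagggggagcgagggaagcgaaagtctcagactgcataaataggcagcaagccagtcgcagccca
In *Aire* the capitals mark TATAAA, beginning 29 bases before the start, which 13% of 27025 mouse promoters of the same length held. In *Krt5* they mark a half-site of the kind p53 and p63 share, beginning 95 bases before the start, which 7.18% of promoters held. Its pattern reads the same on both strands, so any match is a match on both. The *Ccl21a* window held none of these. A κB match lay 107 bases before the start of *Krt14* and 173 bases before that of *Fezf2*, against 3.75% of promoters. The letters CCAAT, in 34.5% of promoters and not capitalised, were in the *Aire* and *Ccl19* windows. These are matches of letters and not measured sites.

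Over all tissue bins most members were more abundant in the KO sections than in WT. The level of *Aire* in CPM was 37.8 in KO1308 (35 to 40.8, 660 UMIs), 19.1 in KO1134 (17.6 to 20.7, 594 UMIs) and 9.54 in WT (8.61 to 10.5, 387 UMIs). *Fezf2*, the other regulator of the display, stood at 16.5, 10.7 and 4.46 CPM in KO1308, KO1134 and WT. For both genes the intervals of the 3 sections did not overlap. Relative to WT, *Aire* was 3.97-fold in KO1308 and 2.0-fold in KO1134, and *Fezf2* 3.69-fold and 2.4-fold. Fewer cells of a type and less RNA per cell cannot be told apart in such values.

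The structural genes were less uniform. The level of *Krt5* in CPM was 294 in KO1308 (286 to 302), 110.1 in KO1134 (106 to 114) and 54.6 in WT (52.4 to 56.9), 5.39-fold and 2.02-fold the WT level. *Krt14*, its usual keratin partner, stood at 60, 36 and 27 CPM in KO1308, KO1134 and WT, 2.22-fold and 1.33-fold. *Epcam* stood at 59.4, 42.3 and 25.1 CPM, 2.37-fold and 1.69-fold. *Trp63* was the exception, with KO1308 above WT and KO1134 below it. Its levels were 50.2, 31.6 and 37.8 CPM, with ratios to WT of 1.33 (1.22 to 1.45) and 0.838 (0.772 to 0.908).

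Of the surface molecules, *Tnfrsf11a*, the receptor for RANK ligand, stood at 11.1, 8.8 and 3.4 CPM in KO1308, KO1134 and WT, 3.25-fold and 2.59-fold. *Cd80* stood at 11.6, 7.68 and 6.43 CPM, with ratios of 1.81 (1.5 to 2.18) and 1.19 (0.997 to 1.43), so that the interval of KO1134 reached 1. In the chemokines KO1134 exceeded KO1308. That of *Ccl21a* in CPM was 333 in KO1308 (324 to 342), 511 in KO1134 (503 to 519) and 98.3 in WT (95.2 to 101), and *Ccl19* stood at 19.5, 30.8 and 5.59 CPM. The ratios to WT were 3.39 and 5.2 for *Ccl21a*, and 3.49 and 5.51 for *Ccl19*.

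By a rule of at least 2-fold with an interval that excludes 1, 8 of 10 members were higher in KO1308 than in WT (21.4% of the 17901 genes with a mean of at least 1 CPM) and 0 were lower (4.03%). In KO1134, 6 were higher (15.7%) and 0 lower (7.59%). The 6 higher in both were *Aire*, *Fezf2*, *Krt5*, *Tnfrsf11a*, *Ccl21a* and *Ccl19* (11.3% of genes were higher in both and 2.01% lower). The median ratio of the members was 3.32 and 2.01, beside 1.14 and 1.02 over all genes. In KO1134 *Aire* and *Krt5* lay at the 2-fold line. With bins of 50 µm, a minimum of 200 genes or all UMIs of each section both fell under it, which left 4 members. The share of all genes called was not counted under these settings.

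The KO sections also differed from each other. *Krt5* was 2.67-fold higher in KO1308 than in KO1134 (2.56 to 2.79) and *Aire* 1.98-fold (1.77 to 2.22). *Ccl21a* in KO1308 was at 0.652 (0.633 to 0.672) and *Ccl19* at 0.634 (0.558 to 0.718) of the KO1134 level. Over all tissue bins the 8 members other than the chemokines were all higher in KO1308, *Tnfrsf11a* least, 1.26-fold (1.04 to 1.52). The same count over all genes was not made, and the order differed by area, as given below. Per *Epcam* UMI, *Aire* was 1.67-fold WT in KO1308 and 1.19-fold in KO1134, *Krt5* 2.27-fold and 1.19-fold, and *Ccl21a* 1.43-fold and 3.08-fold. *Trp63* per *Epcam* UMI was at 0.56 and 0.496 of WT, and *Cd80* at 0.763 and 0.707.

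**Figure D1:**
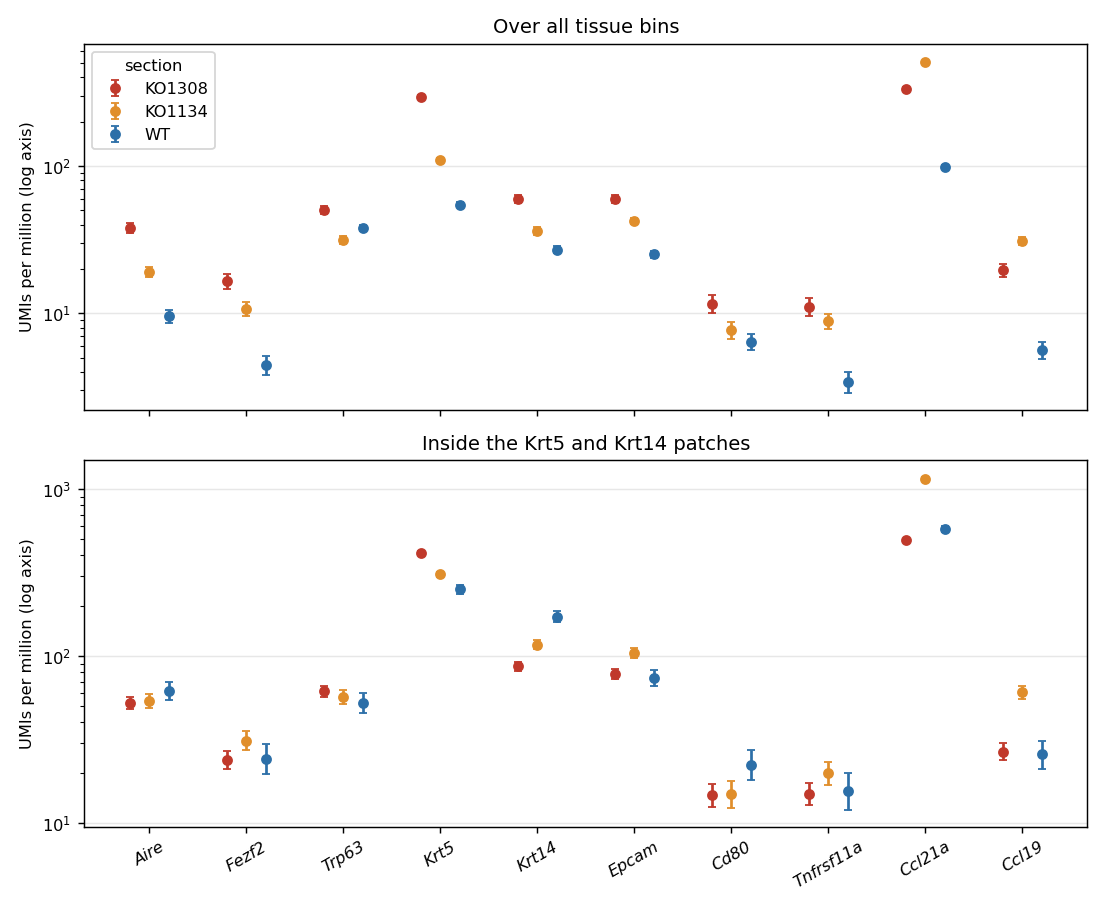
Level of each of the 10 genes in UMIs per 1000000 on a log axis, as points with 95% exact Poisson intervals for each section, over all tissue bins and inside patches rich in *Krt5* and *Krt14*. *Aire* spreads from 9.54 to 37.8 over the tissue but from 52.2 to 61.5 inside the patches.

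Genes of other cell types differed between the same sections. By the same rule 21.4% of all genes were higher than in WT in KO1308 and 15.7% in KO1134, and 4.03% and 7.59% were lower, so that shares such as 1 of 6 genes lay near those of all genes. The 7 cortical thymocyte genes summed to 1651, 601 and 3502 CPM in KO1308, KO1134 and WT, and 6 and 7 of them were lower than in WT. The 7 B cell genes, at 179, 303 and 54.8 CPM, and the 4 adipocyte genes, at 1225, 795 and 92.8 CPM, were all higher in both KO sections. The 8 cortical epithelial genes summed to 3827, 3327 and 3647 CPM, with *Dll4* and *Foxn1* higher in KO1308 and none in KO1134. Of the stromal genes, 5 and 4 of 5 reticular, 1 (*Flt4*) and 3 of 3 lymphatic endothelial, 2 and 2 of 3 other endothelial (*Glycam1* and *Cdh5*), and 2 (*Dcn* and *Lum*) and 4 of 5 fibroblast genes (also *Col1a1* and *Col1a2*) were higher in KO1308 and KO1134. So were 3 (*Fscn1*, *Itgax* and *Flt3*) and 3 (*Itgax*, *Xcr1* and *Clec9a*) of 7 dendritic cell genes, 1 (*C1qa*) and 2 (*C1qa* and *Csf1r*) of 6 macrophage genes, and 2 and 2 of 3 plasma cell genes (*Jchain* and *Mzb1*). Their part in the members' levels was not tested. Each level is a share of all UMIs, so fewer UMIs of one cell type leave a larger share to every other gene.

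The members were therefore also compared within the thymus area, where 6 genes of cortical thymocytes and cortical epithelium reached at least 50% of their section share in the 7 × 7 bins around. This area was ranked by 5 cortical thymocyte genes, none of them a member, into 3 equal bands. In the cortex-poor band *Aire* stood at 56.3, 44.5 and 14 CPM in KO1308, KO1134 and WT, and *Krt5* at 446, 219 and 76.7. Here 8 members were higher in KO1308 than in WT (20.7% of genes, with 5.69% lower) and 9 in KO1134 (16.3%, with 7.4% lower), and no member was lower. *Trp63*, at 1.39-fold and 1.09-fold, was not called in either, nor was *Ccl19* in KO1308, at 1.99-fold. The bands are ranks within a section, so they need not hold like tissue. Of all bins without B cell zones, 45% in WT and 14% in KO1308 held the 5 ranking genes at 2000 to 2500 CPM. Between 500 and 1000 CPM lay 55.7% of those bins in KO1134, 26% in KO1308 and 6.31% in WT.

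Within each section the members lay on the cortex-poor side. *Aire* stood at 14 CPM in the cortex-poor and 1.98 in the cortex-rich band of WT, a ratio of 7.04. The ratio was 8.61 in KO1134 (44.5 and 5.17 CPM) and 2.66 in KO1308 (56.3 and 21.2 CPM). For *Ccl21a* it was 7.03, 15.5 and 5.1 in the same order. The cortex-poor band held 7 members higher in WT (7.03% of genes), 9 in KO1134 (13.2%) and 8 in KO1308 (11.5%). None was lower, beside 0.33%, 3.68% and 4.17% of genes. *Trp63* was not called in any section, at 1.51, 1.64 and 1.6.

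Much of the WT signal, however, lay outside the thymus area. That area is defined by cortical genes, so bins outside it need not lie outside the thymus. In these bins of WT *Aire* reached 76.6 (65.5 to 89.1) CPM, 13.4-fold its 5.71 CPM in the thymus area, and *Krt14* 222 CPM, 14-fold. In KO1134 *Aire* stood at 47.8 CPM outside the thymus area and the B cell zones and 19.1 in the thymus area, and in KO1308 at 44.5 and 36.7. Higher outside were 9 members in WT (16.7% of genes), 6 in KO1134 (9.37%) and 3 in KO1308, *Krt14*, *Ccl21a* and *Ccl19* (7.11%). None was lower, beside 4.87%, 8.39% and 11.7% of genes.

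All tissue other than B cell zones was then ranked by the cortex genes into 10 equal bands, a step chosen after seeing these values. In WT *Aire* stood at 73.4 CPM in the cortex-poorest band, 38.7 in the next, 5.57 in the one after it and between 1.13 and 3.14 in the rest. In KO1134 it stood between 44.2 and 53.2 CPM over the 4 poorest bands and fell to 4.58 in the richest. In KO1308 it reached 77.9 in band 3 and still stood at 14.7 in the richest.

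In the cortex-poorest band the comparison with WT turned. *Aire* stood at 32.8, 45 and 73.4 CPM in KO1308, KO1134 and WT, ratios of 0.447 (0.334 to 0.592) and 0.614 (0.482 to 0.779), and *Cd80* at 8.43, 9.31 and 28.6 CPM, ratios of 0.295 and 0.325. No member was higher in KO1308 (7.73% of genes), and 3, *Aire*, *Krt14* and *Cd80*, were lower (12.8%). In KO1134 *Ccl19* was higher, 2.61-fold (4.93% of genes), and *Cd80* was lower (8.5%). Between the KO sections, *Aire* in KO1308 was at 0.728 (0.533 to 0.988) of KO1134 in this band. *Fezf2* was at 0.603, *Krt14* at 0.697 and *Epcam* at 0.665, while *Krt5* was 1.74-fold and *Trp63* 1.44-fold. The intervals of *Cd80* and *Tnfrsf11a* included 1. These bands did not hold like tissue, since the 5 cortex genes summed to 83.4 CPM in that of KO1308, 74.1 in KO1134 and 581 in WT. The band held 47% of the *Aire* UMIs of WT, 21% of those of KO1134 and 11.2% of those of KO1308.

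**Figure D2:**
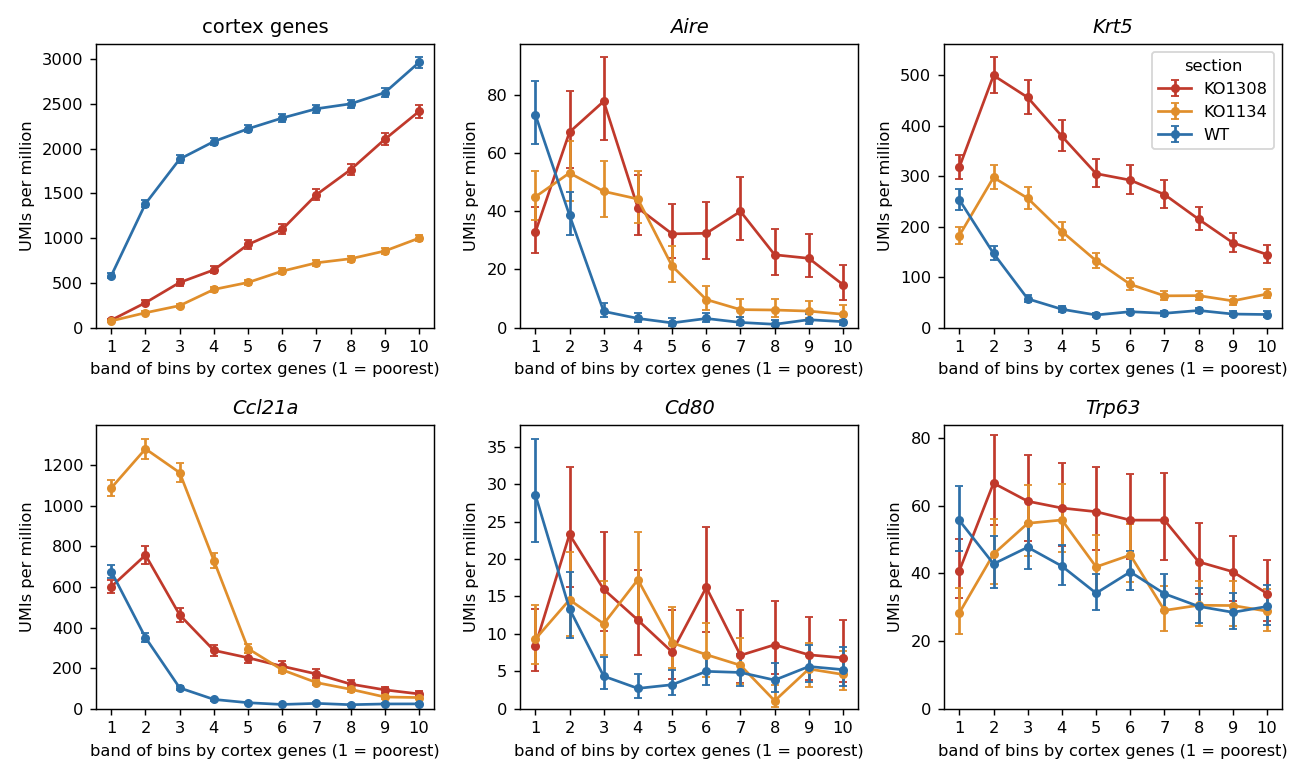
Level in UMIs per 1000000 of the 5 cortex genes together and of 5 members in 10 equal bands of tissue bins without B cell zones, ranked by the cortex genes, with 95% exact Poisson intervals for each section. *Aire* stands above 5.57 in the first 2 bands of WT and in more bands of KO1308 and KO1134, while *Trp63* stays between 28.3 and 66.6.

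Bins were also matched on the level of the cortex genes. Where these reached between 250 and 500 CPM, in 11.8% of bins of KO1308, 21.2% of KO1134 and 1.84% of WT, *Aire* stood at 78.3, 43.8 and 60 CPM and *Krt5* at 524, 216 and 265. Between 500 and 1000 CPM *Aire* stood at 43.6, 8.21 and 82.8 CPM, so that KO1134 was lowest. The cortex genes themselves were lower in the KO sections, so equal levels need not mean equal tissue.

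The extent of keratin-rich tissue was measured next. Bins were joined into patches where *Krt5* and *Krt14* together reached 200 CPM in the 7 × 7 bins around, in groups of at least 49 bins. The cut was the same in every section, so the extent is not independent of the tissue levels of the keratins given above. Over all tissue *Krt5* alone stood at 294 CPM in KO1308, above this cut, and at 110.1 in KO1134 and 54.6 in WT, below it. In WT 11 patches took up 16% of the tissue, with a median of 0.153 and a largest of 0.943 mm². In KO1134 2 patches took up 25.2%, the larger of 2.01 mm² holding 90.9% of the patch bins. In KO1308 3 patches took up 68.3%, with a largest of 3.99 mm². At 100 CPM the shares were 85.1%, 38.6% and 27.8% in KO1308, KO1134 and WT, and at 400 CPM 41.1%, 12.6% and 5.43%, with the sections in the same order. Bins under 300 genes were left out here, and with a minimum of 100 genes the shares were 68.4%, 24.8% and 18.9%. The size of the largest patch in KO1308 depended on this minimum. With 100 genes it was 13.5 mm² and held 97.1% of the patch bins, beside a largest of 2.01 mm² in KO1134 and 1.42 mm² in WT.

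**Figure D3:**
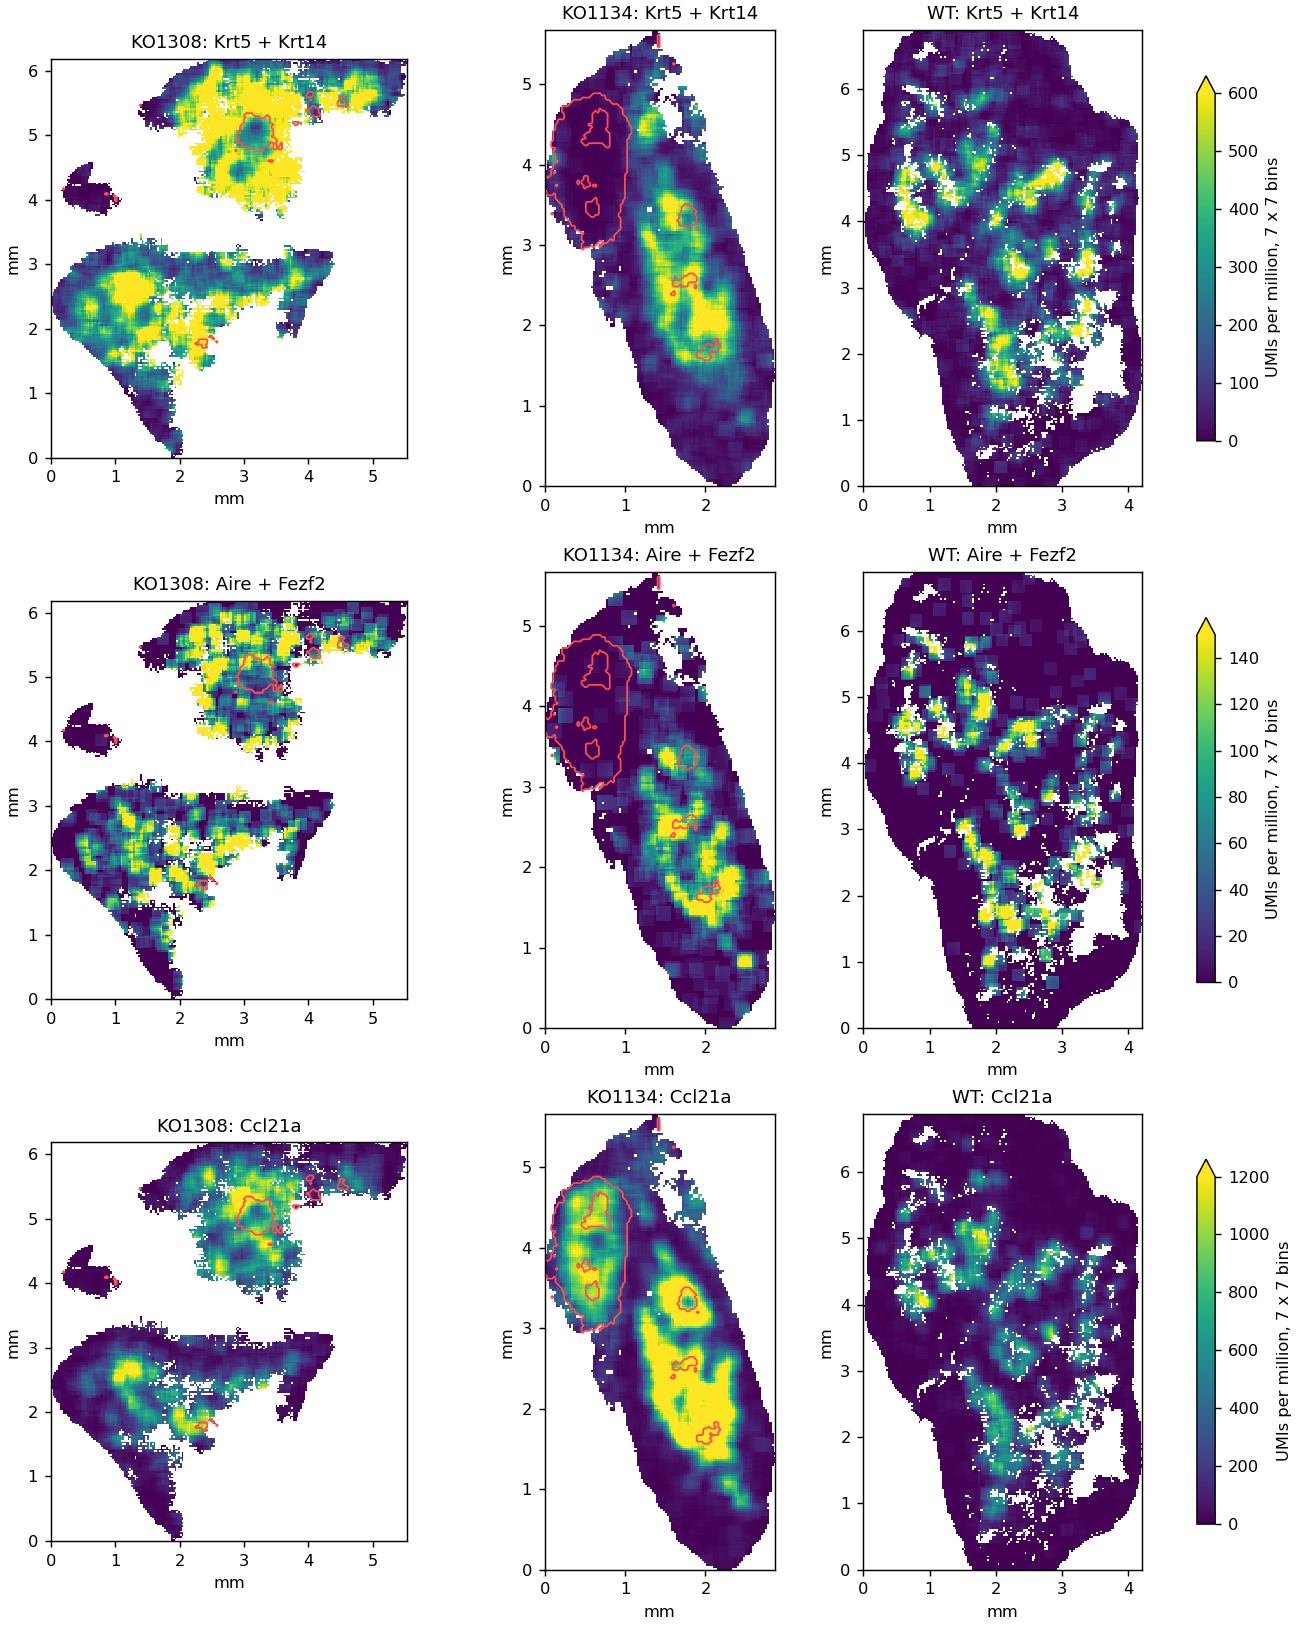
Maps of the tissue bins of each section with axes in mm, coloured by the UMIs per 1000000 of *Krt5* with *Krt14*, *Aire* with *Fezf2*, and *Ccl21a* in the 7 × 7 bins around, with B cell zones outlined in red. Keratin-rich tissue forms small islands in WT, mainly 1 long body in KO1134 beside a B cell zone that holds *Ccl21a*, and broad fields in KO1308.

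Inside the patches the levels of several members came close to WT. *Aire*, which took no part in choosing them, stood at 52.2, 53.6 and 61.5 CPM in KO1308, KO1134 and WT, from 582, 415 and 253 UMIs, ratios to WT of 0.849 (0.731 to 0.987) and 0.871 (0.743 to 1.02). *Fezf2* stood at 23.8, 31.1 and 24.3 CPM, *Tnfrsf11a* at 15, 19.9 and 15.6, *Trp63* at 61.7, 56.7 and 52.5 and *Epcam* at 78.1, 104 and 74.2. The ratio intervals included 1 for *Tnfrsf11a* in both KO sections, for *Fezf2* and *Epcam* in KO1308 and for *Trp63* in KO1134. *Cd80* was lower than in WT in both, at 14.6, 14.9 and 22.4 CPM, ratios of 0.654 (0.503 to 0.853) and 0.664 (0.50 to 0.883). The summed dendritic cell genes stood at 358, 525 and 469 CPM inside the patches, and their part in the *Cd80* level was not tested. The cut set the keratin level, so genes that share places with the keratins, as *Aire* did with *Krt5*, were not independent of it. The patches also need not hold like tissue. Inside them the 5 cortex genes summed to 868 CPM in KO1308, 311 in KO1134 and 1027 in WT.

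The chemokines inside the patches separated the KO sections. *Ccl21a* stood at 492, 1155 and 573 CPM in KO1308, KO1134 and WT, ratios of 0.859 (0.818 to 0.902) and 2.02 (1.93 to 2.11). *Ccl19* stood at 26.7, 60.7 and 25.8 CPM, ratios of 1.04 (0.828 to 1.31) and 2.36 (1.9 to 2.94). In KO1134 both were thus above WT inside the patches as over all tissue, and in KO1308 neither had an interval above 1 inside them. As a description, since they chose the patches, *Krt14* stood at 87, 117 and 172 CPM and *Krt5* at 414, 308 and 250.5.

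The members also differed in how far they kept to the patches. The patches held 65.4% of the *Aire* UMIs of WT in 10.1% of all UMIs. In KO1134 they held 69.9% in 24.9% of all UMIs, and in KO1308 88.2% in 63.9%. The *Aire* level inside was 16.7-fold that outside in WT, 7.0-fold in KO1134 and 4.21-fold in KO1308. Since the patches differed in extent, these ratios do not compare like areas. Outside the patches *Aire* stood at 12.4, 7.66 and 3.68 CPM in KO1308, KO1134 and WT. *Ccl21a* was 9.59, 3.88 and 12.8-fold higher inside than outside in the same order. *Trp63*, the member with the smallest such ratio in each section, was 2.07, 2.43 and 1.45-fold higher inside.

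B cell zones, where *Cd79a*, *Cd79b* and *Ms4a1* exceeded the thymus genes in the 7 × 7 bins around, took up 1959 bins of KO1134, 461 of KO1308 and 0 of WT. Over all zones of KO1134, 6 members were lower than in the thymus area (17.4% of genes) and 1, *Ccl19*, was higher (5.2%). In KO1308, 5 were higher, *Fezf2*, *Krt14*, *Cd80*, *Ccl21a* and *Ccl19* (5.49%), and 0 lower (8.89%). These totals joined zones that differed. The largest zone of KO1134, of 1784 bins and 1.3 mm², held few epithelial transcripts, with *Krt5* at 10.5 CPM, *Epcam* at 5.15, *Trp63* at 3.02 and *Aire* at 2.49, which is 0.0898, 0.116, 0.0791 and 0.13 of the thymus area. It held *Ccl21a* at 692 CPM and *Ccl19* at 46.9 CPM, 1.74-fold (1.68 to 1.81) and 1.92-fold (1.65 to 2.22) the thymus area.

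The smaller zones of KO1134 differed from the largest. Their 175 bins held *Aire* at 61.9 CPM, 3.25-fold (2.12 to 4.79) the thymus area, *Krt14* at 138 CPM, 4.91-fold (3.7 to 6.41), and *Ccl21a* at 1211 CPM, 3.04-fold (2.78 to 3.32). The largest zone of KO1308, of 347 bins, held *Krt14* at 158 CPM, 3.59-fold (2.96 to 4.32), *Ccl21a* at 799 CPM, 3.13-fold (2.89 to 3.4), and *Ccl19* at 92.1 CPM, 7.27-fold (5.52 to 9.52). *Aire* there stood at 36.4 CPM and *Krt5* at 183, 0.992 and 0.618 of the thymus area.

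Stromal genes differed between these zones as well. The lymphatic endothelial genes *Lyve1*, *Prox1* and *Flt4* summed to 221 CPM in the largest zone of KO1134, 10.6 in its thymus area and 7.96 in the largest zone of KO1308. In the smaller zones of KO1134 they had 0 UMIs, which allows up to 8.46 CPM by the 95% exact interval. *Glycam1*, a gene of high endothelial venules, stood at 421 CPM in the largest zone of KO1134, 42.8 in its thymus area and 18.2 in the largest zone of KO1308. In the smaller zones of KO1134 it stood at 367 CPM (312 to 429), with 158 of 160 UMIs in 1 zone of 50 bins. *Chst4*, listed with *Glycam1* among the endothelial genes, had 1 UMI in the largest zone of KO1134. It had 0 UMIs in the smaller zones of KO1134 and in the largest zone of KO1308. The reticular stroma genes summed to 350.2 CPM in the largest zone of KO1308 and 62.1 in its thymus area, against 106 and 128 in KO1134. Their part in the chemokine levels of the zones was not tested.

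Whether the members shared places was described by Pearson r of CPM across windows of 7 × 7 bins (189 µm), of which there were 327 in KO1308, 253 in KO1134 and 576 in WT. The windows of a section share its library. The median r of the 45 pairs was 0.249, 0.487 and 0.374, and all 45 were above 0 in each section. A window held a median of 46256, 130397 and 62943 UMIs of all genes but of 1, 1 and 0 of *Aire*, and the part of this depth in r was not tested. In windows of the thymus area alone the median r was 0.208, 0.417 and 0.179.

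The keratins and *Ccl21a* were close in every section. *Krt5* and *Ccl21a* gave an r of 0.605, 0.648 and 0.748 in KO1308, KO1134 and WT, and *Krt14* and *Ccl21a* 0.607, 0.681 and 0.741. *Krt5* and *Krt14* gave 0.489, 0.731 and 0.681, and the regulators *Aire* and *Fezf2* 0.319, 0.637 and 0.468. The chemokines *Ccl21a* and *Ccl19* gave 0.442, 0.753 and 0.381. *Trp63* gave 0.0412, 0.13 and 0.169 with *Ccl19* and 0.374, 0.52 and 0.246 with *Krt5*.

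**Figure D4:**
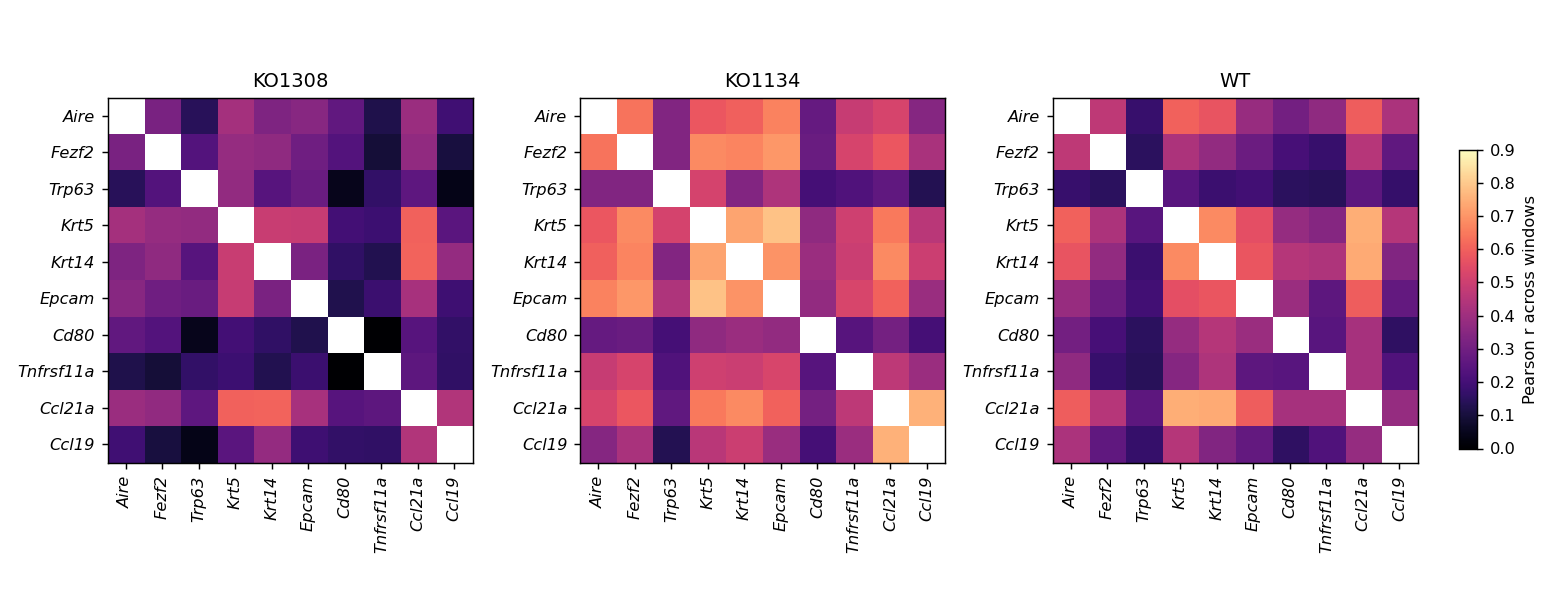
Pearson r of CPM across 7 × 7 windows for each pair of members, with 1 panel per section (327, 253 and 576 windows) and r as colour. The pairs among *Krt5*, *Krt14* and *Ccl21a* are all at or above 0.489, and most pairs of *Trp63* lie below the median of their section.

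Against genes of other cells, *Ccl21a* gave an r of 0.689, 0.586 and 0.756 with its receptor gene *Ccr7* and of -0.588, -0.615 and -0.818 with the summed cortical thymocyte genes in KO1308, KO1134 and WT. *Krt5* gave -0.40, -0.277 and -0.723 with the cortical thymocyte genes and 0.481, 0.685 and 0.673 with the dendritic cell genes. *Trp63* gave -0.107, 0.0531 and -0.256 with the cortical thymocyte genes and 0.19, 0.43 and 0.0268 with the cortical epithelial genes.

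Among 12960 other genes with at least 100 UMIs in every section, those most like *Aire* by the mean r over the 3 sections were *Ubd* (0.607), *Fcgbp* (0.601) and *H2-Ab1* (0.599). For *Krt5* they were *Fcgbp* (0.766), *Cd74* (0.717) and *H2-Ab1* (0.716), where *Cd74* and *H2-Ab1* encode the invariant chain and a class II chain of antigen presentation. For *Krt14* they were *Gm21541* (0.723), *Gm13304* (0.718) and *Gm13307* (0.716), for *Ccl21a* *4930578G10Rik* (0.94), *Gm13307* (0.867) and *Cd74* (0.85), and for *Ccl19* *Tmsb4x* (0.579), *4930578G10Rik* (0.559) and *H2-Aa* (0.555).

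The gene closest to *Ccl21a* cannot be taken as a separate signal. *4930578G10Rik* spans chr4:42735545-42846248 on the opposite strand and covers *Ccl21a* and *Ccl19*. Its tissue UMIs, 6082, 15287 and 4178 in KO1308, KO1134 and WT, lay near the 5806, 15891 and 3987 of *Ccl21a*. Of the spots with a *Ccl21a* UMI, 10.7, 24.2 and 12.2% also held one of *4930578G10Rik*, against 0.783, 3.96 and 0.489% of all spots with UMIs. Whether the counting used strand is not given in the sources used here, and without it reads of overlapping genes cannot be told apart.

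*Ccl21a* also has near-identical copies among which the counting could split reads. *Gm21541* stood at 95.9, 138 and 15.6 CPM in KO1308, KO1134 and WT, 6.16-fold and 8.88-fold, and *Gm13304* at 103, 66.6 and 28.5 CPM, 3.61-fold and 2.34-fold. *Ccl21b* had 34, 22 and 4 UMIs and *Gm10591* 50, 18 and 3. The *Ccl19* pseudogenes *Ccl19-ps1* and *Ccl19-ps3* had 120, 133 and 43 and 183, 176 and 89 UMIs. All of these had more UMIs per 1000000 in both KO sections than in WT, as *Ccl21a* and *Ccl19* did, but the amount in each copy is uncertain. *Ccl21c* had 0 UMIs.

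Clustering was read from pairs of UMIs of a gene in different bins, divided by the number expected if the gene followed the total UMIs, so that 1 means none. In neighbouring bins the median of the members was 1.96, 2.31 and 2.33 in KO1308, KO1134 and WT, beside 1.08, 1.1 and 1.01 over all genes tested. The 90th percentile over all genes was 2.31, 2.05 and 1.75, so the median of the members lay below it in KO1308. *Aire* stood at 2.28, 4.33 and 4.51, *Ccl19* at 3.81, 2.74 and 7.05 and *Krt14* at 2.27, 3.9 and 2.9. *Trp63* lay near 1, at 0.986, 1.22 and 1.17. *Cd80*, with few UMIs, stood at 1.66, 0.887 and 1.23.

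The clusters reached different distances. From neighbouring bins to 270 and 540 µm the pair ratio of *Aire* went over 4.51, 1.71 and 1.49 in WT, 4.33, 2.05 and 1.85 in KO1134 and 2.28, 1.17 and 1.39 in KO1308. That of *Krt14* went over 2.9, 1.59 and 1.42 in WT, 3.9, 2.6 and 2.06 in KO1134 and 2.27, 1.92 and 1.88 in KO1308. *Krt5* in KO1308 varied little with distance, at 1.31, 1.27 and 1.39, and *Ccl21a* went over 2.59, 2.24 and 2.12 there and 3.82, 1.93 and 1.81 in WT.

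**Figure D5:**
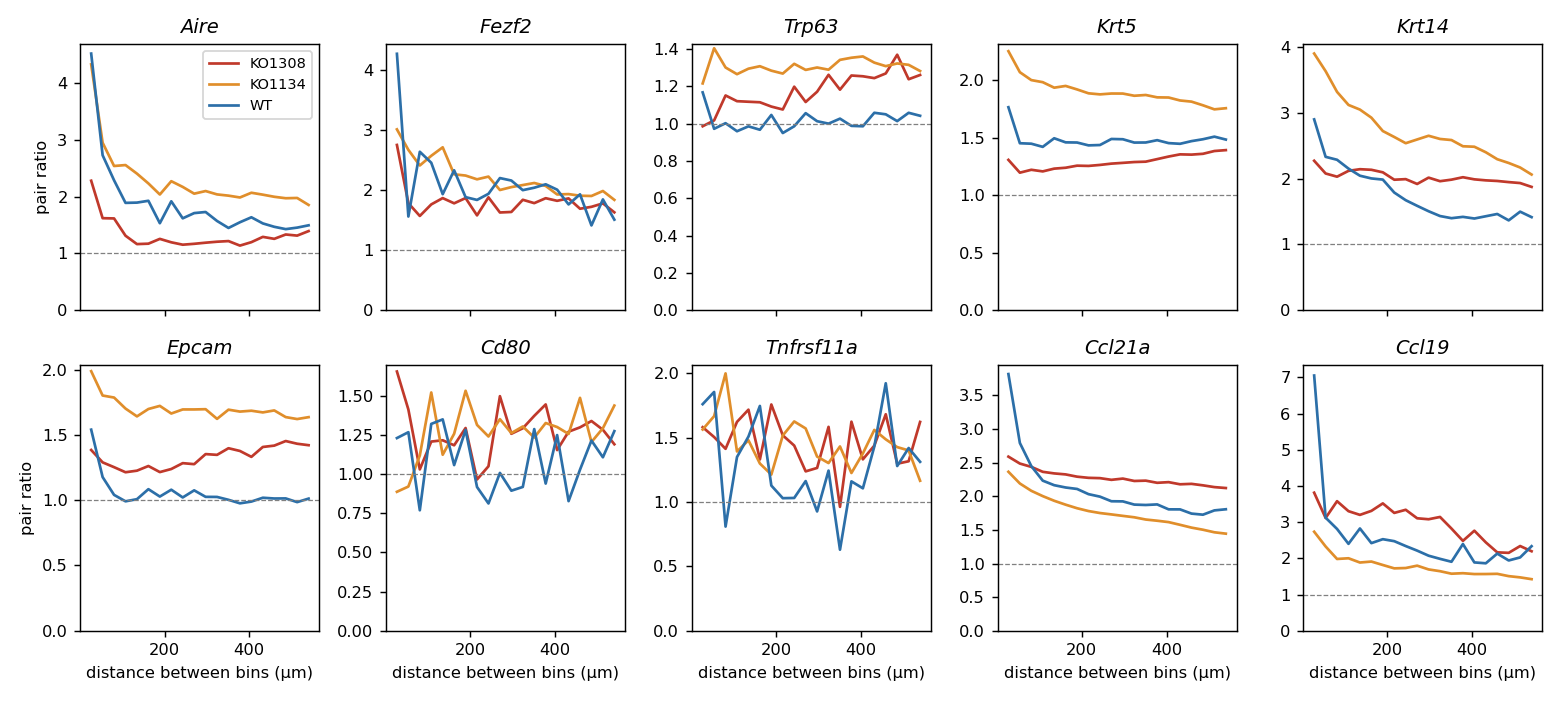
Pair ratio of each member against the distance between bins, from 27 to 540 µm, for the 3 sections, where 1 means that a gene follows the total UMIs. *Aire* falls from 4.51 to 1.49 in WT, while *Trp63* starts at 1.17.

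Genes of the signals around the medullary epithelium were counted by the same rule, which called 21.4% of all genes higher in KO1308 and 15.7% in KO1134, and 4.03% and 7.59% lower. Of 11 genes listed for NF-κB signals of the medullary epithelium with enough UMIs, 4 were higher in KO1308, 4 in KO1134 and none lower. Their median ratios were 1.75 and 1.56, beside 1.14 and 1.02 over all genes. *Relb*, which encodes RelB, stood at 53.8, 45.3 and 19.2 CPM in KO1308, KO1134 and WT, 2.81-fold and 2.37-fold. *Cd40*, which B cells and dendritic cells carry too, stood at 30.2, 20.9 and 8.75 CPM, 3.45-fold and 2.39-fold. *Tnfrsf11b*, the decoy receptor for RANK ligand, was 3.83-fold and 2.36-fold higher. *Lta* was higher in KO1308, 2.33-fold, and *Tnfsf11*, RANK ligand itself, in KO1134, 2.26-fold. *Traf6* had the smallest ratios, 1.1 and 0.682, and *Cd40lg* was too low to be counted.

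In the CCR7 axis, against the same 21.4% and 15.7% of genes higher, *S1pr1* (5.22-fold), *Il7r* (4.01-fold), *Klf2* (2.32-fold) and *Ccr7* (2.13-fold) were higher in KO1134. In KO1308 they were not called, at 1.73-fold, 1.64-fold, 1.75-fold and 1.22-fold. *Ccr7* stood at 50.3, 87.5 and 41.1 CPM in KO1308, KO1134 and WT. The scavenging receptor gene *Ackr4* had the smallest ratio in KO1134, 0.751. Of 4 costimulation genes listed beside *Cd80*, 2 were higher and 1 lower in each KO section, where 4.03% and 7.59% of all genes were lower. *Icosl* was higher in both, 3.89-fold and 3.61-fold, *Ctla4* in KO1308, 2.98-fold, and *Cd86* in KO1134, 2.11-fold. *Cd28*, the receptor of CD80 on T cells, was lower in both, at 65.2, 43.1 and 187 CPM, ratios of 0.349 and 0.231.

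Other epithelial genes did not move as one, and the shares of all genes to set beside them were 21.4% higher and 4.03% lower in KO1308 and 15.7% and 7.59% in KO1134. Of 6 further keratins and claudins with enough UMIs, *Cldn3* was 7.19-fold higher in KO1308 and 3.02-fold in KO1134, whereas *Cldn4* was 2.07-fold higher in KO1308 and at 0.387 of WT in KO1134. *Krt19* was lower in KO1134, at 0.435, and not called in KO1308, at 1.97. Of 3 genes of keratinised epithelium with enough UMIs, *Krtdap* was higher in KO1308, 2.17-fold, and none was called in KO1134, where *Sbsn* had the smallest ratio, 0.705.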

How the data were processed

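BMKMANU S1000 libraries of 3 thymus sections were analysed from the deposited matrices, which hold raw UMI counts per gene and spot that the authors made with BSTMatrix and STAR on GRCm38. No normalisation had been applied. The counts of spots were summed here by gene symbol into 27 µm bins. Bins with at least 300 genes, at most 30% mitochondrial UMIs and a place in a connected group of at least 200 bins were kept, which left a mean of 1101 UMIs per bin in KO1308, 2589 in KO1134 and 1497 in WT. Groups were taken from the genotype labels. Whether reads of nearby strands or copies were separated is not given in the sources used here.

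Levels are UMIs per 1000000 UMIs (CPM) with exact Poisson intervals, and ratios carry exact conditional binomial intervals. These intervals, at 95%, cover counting error only. A gene was called at 2-fold or more with an interval that excludes 1. Named genes were the 10 members, *Trp53*, list genes with the largest and smallest ratios or covered by counts of 5 or fewer, copies of *Ccl21a* and *Ccl19*, and the 3 genes most like each of 5 members. *Glycam1* and *Chst4* in the zones were chosen after their values were seen. One gene of the CCR7 axis is not reported here. Members and lists were chosen with earlier results of these data known. The 10 bands, the equal cortex levels, the keratin patches, the single zones and the values per *Epcam* UMI were added after seeing the data. Scripts ran in Python 3.11.15 with numpy 2.4.6 and scipy 1.17.1 and were tested on simulated data. Bins of other widths, gene minimums, denominators, areas and windows were tried as alternatives.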

Additional observations from a re-analysis of the deposited data

Results flagged for a closer look

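Bins outside the tissue, which no comparison used, held the members at a higher summed level in KO1308 than in WT. There the 10 genes together stood at 826 (797 to 856, 3011 UMIs) in KO1308, 542 (415 to 696, 61 UMIs) in KO1134 and 436 (396 to 479, 440 UMIs) in WT, in UMIs per 1000000. Within the tissue the sums were 893, 808 and 272 in the same order. These bins held 17.3% of the UMIs of KO1308, 0.36% of those of KO1134 and 2.43% of those of WT. *Aire* outside the tissue stood at 47.4 in KO1308 and 33.7 in WT, from 173 and 34 UMIs. In KO1308 this was above its 37.8 within the tissue, as were *Krt5*, at 323 outside and 294 within, and *Trp63*, at 73 and 50.2. All other members of KO1308 stood lower outside, such as *Ccl21a* at 234 and 333. Over all UMIs of each section 8 members were higher in KO1308 than in WT and 4 in KO1134, where the share of all genes called was not counted.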

How the results depend on the processing

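Over the alternatives 83 of the recomputed counts and medians stayed close to the value reported, counts within 1.5 times, and 17 did not. Of single ratios 273 stayed, 155 moved and 14, all of called genes, reversed. Leaving out a KO section gave 6 to 8 members higher in the KO sections. The tissue ratio of *Aire* ranged from 3.88 to 6.43 in KO1308 and from 1.88 to 3.34 in KO1134, and that of *Trp63* in KO1134 from 0.833 to 1.04. A fold of 1.5 gave 12 pathway genes higher in both KO sections in place of 5. In the cortex-poorest of 10 bands, set against the cortex-poor band of the thymus area, 0 members were higher in KO1308 and 1 in KO1134, and ratios reversed for *Aire* (0.447), *Fezf2* (0.537), *Krt14* (0.413), *Epcam* (0.556), *Cd80* (0.295), *Tnfrsf11a* (0.603) and *Ccl21a* (0.89) in KO1308 and for *Aire* (0.614), *Fezf2* (0.891), *Krt5* (0.722), *Krt14* (0.592), *Epcam* (0.836), *Cd80* (0.325) and *Tnfrsf11a* (0.767) in KO1134. *Trp63*, not called there, went from 1.39 to 0.733 in KO1308 and from 1.09 to 0.509 in KO1134. In tissue outside the thymus area and B cell zones 0 members were higher in KO1308, 0 in KO1134 and 0 in both, and 0 pathway genes in both. There 2 members were lower than in WT in KO1308 and 1 in KO1134, and 2 of 10 ratios were above 1 in each. The median ratio of the members was 0.63 and 0.895, beside 0.836 and 0.839 over all genes. The share of all genes called was not counted for this area. Both areas were chosen after seeing the data, and the cause was not tested. The median r was 0.271 in WT by Spearman's rho, 0.256 in WT with 5 × 5 windows, 0.179 in WT within the thymus area, and 0.384, 0.581 and 0.472 in KO1308, KO1134 and WT with 10 × 10 windows. Bins of 50 µm left 5 members higher in KO1308 in the cortex-poor band. With B cell genes above 2 times the thymus genes, 2 members were lower in the zones of KO1308 and 0 higher in those of KO1134, and with a thymus area at 100% of the section share 2 were higher in those of KO1134. Shares of all genes called were not counted under these settings, and the cause of these changes was not tested.

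No paired analysis was possible because there was 1 WT section and no test. The 1 WT section, the ages and the permeabilisation time limit every comparison between genotypes. *Cd80*, *Tnfrsf11a* and *Fezf2*, with 203, 193 and 287 tissue UMIs in KO1308, had the fewest of the members there, and their window values rest on few UMIs.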
